A study of Rattus norvegicus with 8 samples.

Results

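The mast cell proteases described here are Mcpt1, Mcpt4, Mcpt8, Mcpt9, Mcpt10, Cma1, Cpa3, Tpsab1 and Tpsb2, chosen by gene name as the set of granule proteases that mast cells make. All 9 genes were matched to a probe through the RefSeq accession that the array files give, each to 1 probe printed in 2 spots, out of 15168 genes named on the array. All 9 probes passed the filter on dim probes, which asked for a signal well above background in 4 or more rats of the 16 and left 22539 of 30367 probes to test. The probes carry the accessions NM_172044 (Mcpt1), NM_019321 (Mcpt4), NM_021598 (Mcpt8), NM_019323 (Mcpt9), NM_017146 (Mcpt10), NM_013092 (Cma1), NM_019300 (Cpa3), NM_019322 (Tpsab1) and NM_019180 (Tpsb2). The gene now called Mcpt1 has synonyms of both rat mast cell protease I and rat mast cell protease II, so which of those 2 enzymes its probe reads was not settled here.

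RNA came from a middle stretch of colon of female Wistar rats, given as 6 weeks old, with 4 rats in each of 4 diets. The reference group (REF) ate a standard purified chow, the cocoa group (C10) a chow with cocoa powder that brings both polyphenols and fiber, the cocoa fiber group (CF) the same cocoa fiber with few polyphenols, and the inulin group (I) inulin as its soluble fiber. Each of 8 two-colour arrays held the RNA of 2 rats, 1 in Cy5 and the other in Cy3, and every rat lay on 1 array, with 2 rats of each diet in each dye. Arrays 1 and 2 paired C10 with REF, arrays 3 and 4 paired C10 with CF, arrays 5 and 6 paired CF with I, and arrays 7 and 8 paired I with REF. Arrays 1 to 4 and 5 to 8 lay on opposite sides of 1 slide, so C10 and I rats never shared a side. The whole piece of colon was used, so fewer mast cells and less RNA of a protease per mast cell cannot be told apart.

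Mast cells are long-lived immune cells of connective tissue and mucosa that store histamine, heparin-like proteoglycan and a few very abundant proteases in granules and release them when IgE bound to their surface receptor meets its antigen. The proteases are of 3 kinds. Chymases cut proteins after aromatic residues, tryptases cut after lysine or arginine, and carboxypeptidase A3 removes single residues from the end of a chain. In rodents the chymase genes have multiplied in 1 locus, which also holds the granzymes of cytotoxic cells, and mast cells of the gut mucosa and of connective tissue store different sets of them.

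In the current rat annotation 6 of the genes lie in the order Cma1, Mcpt4, Mcpt8, Mcpt9, Mcpt1 and Mcpt10 along chromosome 15. The tryptase genes Tpsab1 and Tpsb2 are neighbours on chromosome 10 and Cpa3 is on chromosome 2. RefSeq promoters of build GRCr8 were found for 8 of the 9 genes, and that of Mcpt10 was not among them. The 120 bases before the annotated start are shown for 6 of them, because these are genes whose signals fell with the C10 diet and because some of them are close copies of each other. Capitals mark GATAA (the core of sites for GATA factors, such as the mast cell factor Gata2) and TGTGGT (the core of sites for Runx factors), each searched on both strands, and TATAAA on the strand of the gene.

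Mcpt1 (chr15:33841486-33841605, plus strand): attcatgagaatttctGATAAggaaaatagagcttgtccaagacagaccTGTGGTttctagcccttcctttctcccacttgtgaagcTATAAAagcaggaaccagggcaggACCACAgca
Mcpt4 (chr15:33471371-33471490, plus strand): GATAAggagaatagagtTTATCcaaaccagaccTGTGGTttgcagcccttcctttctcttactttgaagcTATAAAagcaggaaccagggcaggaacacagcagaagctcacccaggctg
Mcpt8 (chr15:33769529-33769648, plus strand): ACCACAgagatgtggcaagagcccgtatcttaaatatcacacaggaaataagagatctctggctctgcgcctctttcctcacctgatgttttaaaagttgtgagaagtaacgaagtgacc
Mcpt9 (chr15:33827310-33827429, plus strand): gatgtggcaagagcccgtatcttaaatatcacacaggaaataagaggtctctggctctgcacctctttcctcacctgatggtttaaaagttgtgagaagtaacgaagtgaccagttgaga
Cma1 (chr15:33390134-33390253, minus strand): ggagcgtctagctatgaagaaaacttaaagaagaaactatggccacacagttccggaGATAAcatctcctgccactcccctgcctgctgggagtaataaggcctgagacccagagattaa
Cpa3 (chr2:104673238-104673357, minus strand): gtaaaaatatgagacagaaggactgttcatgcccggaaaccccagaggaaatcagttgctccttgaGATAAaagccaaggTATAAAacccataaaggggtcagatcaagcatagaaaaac

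Over the 250 bases before the start, the promoters of Mcpt8 and Mcpt9 had 96.3% identical bases in 242 aligned, and those of Mcpt1 and Mcpt4 had 88.5% in 226. The promoter of Mcpt8l2, a further gene of this family, had 96.1% identical bases with that of Mcpt8 in 232 aligned and 96.7% with that of Mcpt9 in 240. The tryptase promoters were less alike, with 64.4% in 222 aligned bases. GATAA was found within the last 120 bases in Mcpt1, Mcpt4, Cma1, Cpa3 and Tpsab1, and in 11.2% of all 33469 promoters. TATAAA was found there in Mcpt1, Mcpt4 and Cpa3 and in 4.38% of all promoters, and TGTGGT in Mcpt1, Mcpt4 and Mcpt8 and in 6.78% of all. Probe sequences were not used here, and bases before the start are not in the transcript, so how far the Mcpt8, Mcpt9 and Mcpt8l2 probes also bind each other's transcripts was not tested.

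The first question of the design was what the cocoa diet did to the proteases against the reference diet. In C10 rats 7 of the 9 protease probes were lower than in REF rats and passed the test, which was an adjusted p below 0.05 in limma and a change of at least 2-fold. These were Mcpt1, Mcpt4, Mcpt8, Mcpt9, Mcpt10, Cma1 and Cpa3, with falls between 2.09-fold (Cma1) and 5.50-fold (Mcpt1). The 2 tryptase probes, Tpsab1 and Tpsb2, did not pass and had fitted changes near 0. Of all tested probes 0.195% were called lower in this comparison (44 probes), and 4 were called higher. For each of the 7 proteases all 4 C10 rats lay below all 4 REF rats, a separation that 1.98% of all tested probes showed. The median log2 fold change of the 9 probes was -1.58, and that of all tested probes was 0.015. When log-ratios within arrays were fitted in place of the separate dye signals, 0 of the 22539 probes were called, and the 7 proteases had changes of -2.19 to -0.99 with adjusted p of 0.16 to 0.246.

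**Figure D1:**
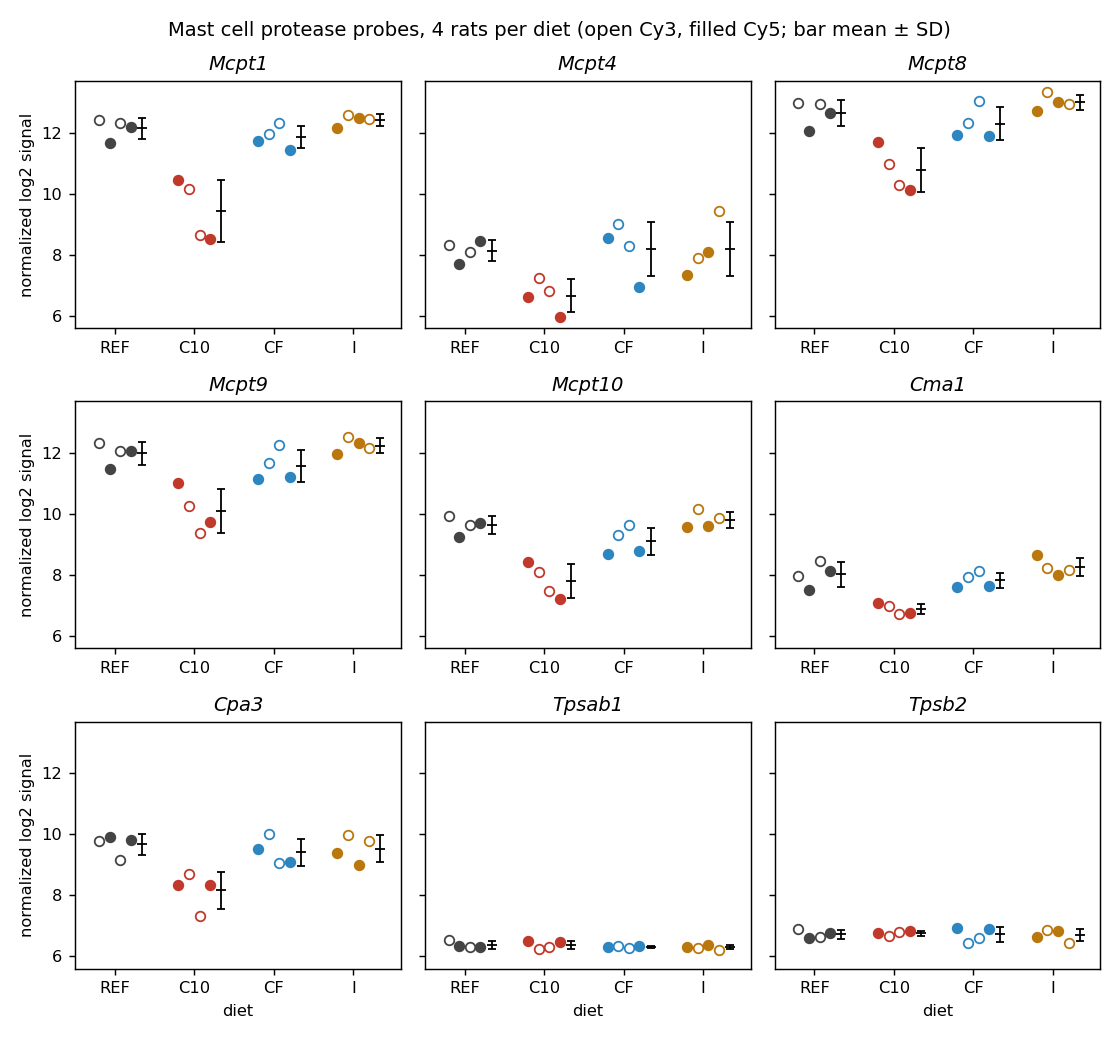
Normalized log2 signal of each of the 9 protease probes (1 panel each, the same y axis) by diet, with 1 point per rat (open Cy3, filled Cy5) and a bar for the mean ± SD of 4 rats. In 7 panels the 4 C10 points lie below the 4 REF points, while the Tpsab1 and Tpsb2 points of all diets lie between 6.21 and 6.94.

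Mcpt1, a chymase of the beta family, fell the most of the 9 probes, except from the processed signals of the scanner software, where the log2 fold change of Mcpt1 in C10 against REF was -2.60 and that of Mcpt4 was -2.61. Its normalized log2 signal was 12.42, 11.64, 12.32 and 12.17 in REF rats 1 to 4 and 10.46, 10.13, 8.63 and 8.51 in C10 rats 1 to 4. The groups did not overlap, and the 2 C10 rats on the arrays shared with CF (rats 3 and 4) were lower than the 2 on the arrays shared with REF. The means were 12.14 ± 0.35 in REF and 9.43 ± 1.01 in C10 (SD, n = 4 each). The fitted log2 fold change was -2.46 (SE 0.32, 95% interval -3.14 to -1.78, limma adjusted p = 0.00281). The exact two-sided permutation test of the 2 means gave p = 0.0286, the smallest that 4 rats against 4 can give, and it gave the same p for the other 6 proteases that fell. A fitted change need not equal the difference of the means, because the fit weighs each rat by its partner on the array.

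Mcpt4, another chymase of the beta family, had log2 signals of 8.33, 7.68, 8.09 and 8.44 in the REF rats and of 6.61, 7.24, 6.82 and 5.96 in the C10 rats. The lowest C10 rat lay in the range of the dimmest signals still well above background, which was 5.83 to 6.21 over the rats. The log2 fold change was -1.38 (SE 0.30, adjusted p = 0.0404). This call was the least secure of the 7: it was lost in 6 of 8 fits that left out 1 C10 or REF rat, all but those without C10 rat 1 or REF rat 3, with changes of -1.57 to -1.24 and adjusted p from 0.0296 to 0.153. For this dim probe the offset added in the background correction set the size, since without it the log2 fold change of Mcpt4 in C10 against REF was -2.13, and it was -2.61 from the processed signals of the scanner software.

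Cma1, the alpha chymase that is the nearest rat counterpart of human chymase, had the smallest fall of the 7 with the offset of the background correction. Its log2 signals were 7.98, 7.50, 8.47 and 8.12 in REF and 7.07, 6.997, 6.73 and 6.74 in C10, so the C10 rats lay within a narrow range below every REF rat. The change was -1.06 (SE 0.17, adjusted p = 0.00895), close to the 2-fold limit. Without C10 rat 3, REF rat 3 or REF rat 4 it was -0.99, -0.94 and -0.995, under that limit, with adjusted p at or below 0.0306 in each. Without the offset the log2 fold change of Cma1 in C10 against REF was -1.59, and from the processed signals it was -1.92. There it was larger than the log2 fold change of Mcpt8 in C10 against REF (-1.74) and the log2 fold change of Mcpt9 in C10 against REF (-1.78), so the order of the falls turned.

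Mcpt8, Mcpt9 and Mcpt10 belong to a branch of the locus whose members are close to granzymes in sequence. Mcpt8 had log2 signals of 12.96, 12.05, 12.94 and 12.65 in REF and 11.68, 10.97, 10.27 and 10.11 in C10. The Mcpt9 signals were 12.34, 11.46, 12.07 and 12.07 in REF and 11.01, 10.26, 9.37 and 9.73 in C10. Both probes put C10 rat 1 highest and C10 rats 3 and 4 lowest, as Mcpt1 did. Mcpt10 gave 9.93, 9.23, 9.64 and 9.71 in REF against 8.43, 8.08, 7.47 and 7.23 in C10, in the same order of C10 rats as Mcpt8. The 3 falls were of like size: -1.69 (SE 0.26, adjusted p = 0.00949) for Mcpt8, -1.70 (SE 0.26, adjusted p = 0.00895) for Mcpt9 and -1.69 (SE 0.20, adjusted p = 0.00221) for Mcpt10. None of these 3 calls, nor that of Mcpt1, was lost when any single C10 or REF rat was left out.

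Cpa3, the carboxypeptidase stored with chymases on the granule proteoglycan, had log2 signals of 9.80, 9.90, 9.17 and 9.82 in REF and 8.33, 8.69, 7.31 and 8.33 in C10. REF rat 3 lay apart below the other 3 REF rats, and C10 rat 3 was the lowest of all 16. The change was -1.58 (SE 0.25, adjusted p = 0.0101). Without REF rat 2 the adjusted p was 0.0682, the only omission of a rat that ended this call, and the changes over the omissions ran from -1.82 to -1.34.

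The tryptases were dim. Tpsab1, whose product is a secreted tryptase subunit, had log2 signals of 6.55, 6.34, 6.30 and 6.30 in REF and 6.50, 6.25, 6.30 and 6.48 in C10, and was well above background in only 1 of the 8 rats labelled with Cy3 and in all 8 labelled with Cy5. Its Cy3 intensities were 40 to 46.5 over a local background of 20 to 23.5. Tpsb2, the other tryptase of the pair, gave 6.91, 6.61, 6.62 and 6.75 in REF and 6.75, 6.66, 6.80 and 6.82 in C10 and was well above background in 15 of 16 rats. The groups overlapped for both. The fitted changes were -0.0099 (95% interval -0.13 to 0.11, adjusted p = 0.95) and 0.0092 (-0.19 to 0.21, adjusted p = 0.975). These intervals hold for signals near background, where the offset of the background correction compresses any change, so a change of the tryptases was not detectable at this signal rather than shown to be absent.

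Whether the proteases fell by different amounts was asked in 8 exact permutation tests, each of the log2 signal of a protease minus that of Cpa3 in the same rat, in C10 against REF. Mcpt1 fell by 1.20 more than Cpa3 on this scale, a difference that did not pass (exact p = 0.0571, adjusted over the 8 tests 0.152). For Mcpt4, Mcpt8, Mcpt9, Mcpt10 and Cma1 the differences were between -0.38 and 0.37 with exact p of 0.343 or more. Tpsab1 and Tpsb2 differed from Cpa3 by 1.52 and 1.54 (exact p = 0.0286 each, adjusted 0.114). With 4 rats a diet, a difference in 1 or 2 proteases cannot pass this adjustment even at the smallest p, so these tests do not tell whether the amounts differed, and the tryptase values are set by signals near background.

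**Figure D2:**
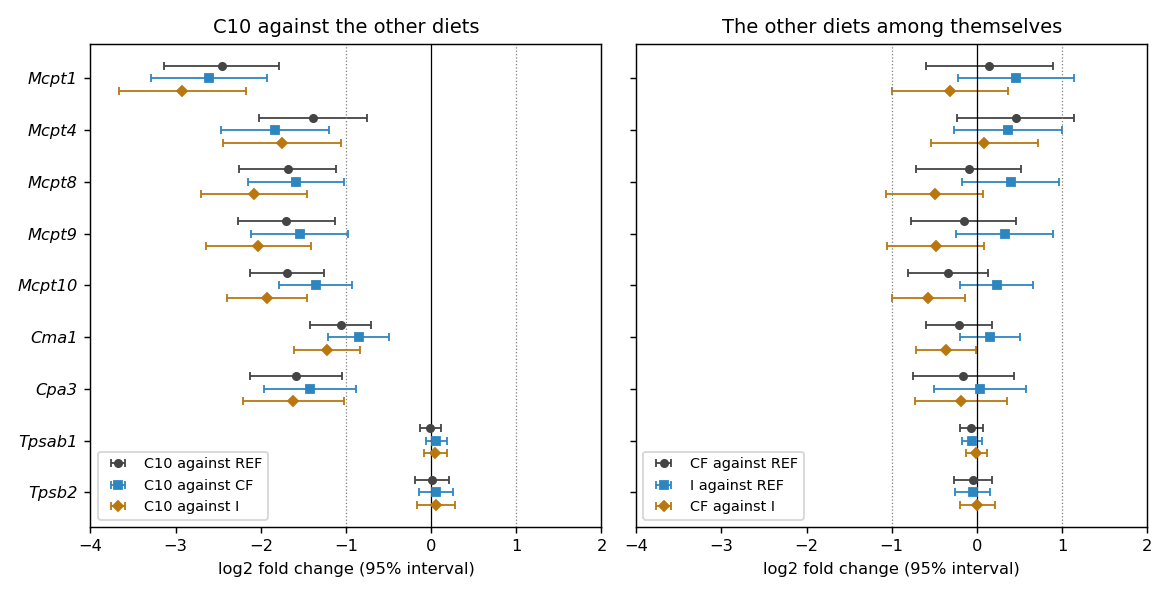
Fitted log2 fold change of each protease probe (rows) with its 95% interval, for C10 against REF, CF and I (left) and for the other 3 comparisons (right), with dotted lines at 2-fold. For 7 proteases the left intervals lie below 0, from -2.92 to -0.85 at their centres, whereas the right panel holds values from -0.57 to 0.46.

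The CF and I diets ask whether the fiber of cocoa, or another soluble fiber, gives the same change as whole cocoa. Neither moved a protease probe past the test. CF rats had changes of -0.34 (Mcpt10) to 0.45 (Mcpt4) against REF, with adjusted p of 0.802 or more; 0% of the tested probes were called in this comparison, none of the 9 had an unadjusted p below 0.05, and 1611 of all tested probes did. In I rats the changes against REF were -0.058 (Tpsab1) to 0.46 (Mcpt1) with adjusted p of 0.876 or more. Here too 0% of probes were called, and 1418 probes but no protease had an unadjusted p below 0.05. The 95% intervals of the 7 proteases other than the tryptases ran from -0.81 at the lowest to 1.15 at the highest for CF and from -0.51 to 1.14 for I, so falls of 2-fold lay outside them, while a rise of 2-fold lay inside the interval of Mcpt4 in CF and of Mcpt1 in I.

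The levels in these diets were close to those of REF. Mcpt1 had log2 signals of 11.72, 11.94, 12.30 and 11.43 in CF (mean 11.85 ± 0.37) and of 12.15, 12.57, 12.47 and 12.45 in I (12.41 ± 0.18). No array paired CF with REF, and fitted changes there departed from the means. For Mcpt1 the fitted change was 0.15, though the CF mean lay below the REF mean of 12.14. For Mcpt4 it was 0.45, with means of 8.19 in CF and 8.13 in REF. Mcpt8 had means of 12.29 ± 0.53 in CF and 12.99 ± 0.25 in I, against 12.65 ± 0.42 in REF. Cpa3 had 9.42 ± 0.45 and 9.53 ± 0.44, against 9.67 ± 0.34 (SD, n = 4 each). For Mcpt1, Mcpt8, Mcpt9, Mcpt10 and Cma1 the order of the means was I, REF, CF and C10 from high to low, for Cpa3 it was REF, I, CF and C10, and for Mcpt4 it was I, CF, REF and C10. In these orders the neighbours I, REF and CF overlapped in every one of the 7 probes, and the C10 mean was lowest in all 7. Mcpt4 had the widest spread in CF and I, with SDs of 0.90 and 0.89, from 6.92 in CF rat 4 to 9.44 in I rat 4.

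The CF diet has the cocoa fiber but few of the polyphenols. Comparing C10 with CF does not single out the polyphenols, since the paper also names theobromine as a candidate and reports a lower body weight in C10 rats. Against CF, C10 rats had 6 of the 9 protease probes called lower. The changes were -2.61 for Mcpt1 (SE 0.32, adjusted p = 0.00399), -1.84 for Mcpt4 (SE 0.30, adjusted p = 0.0182), -1.59 for Mcpt8, -1.54 for Mcpt9, -1.36 for Mcpt10 and -1.43 for Cpa3, the last 4 with adjusted p from 0.0129 to 0.0266. Cma1 was lower by less than 2-fold (-0.85, adjusted p = 0.0397). Without the offset the log2 fold change of Cma1 in C10 against CF was -1.35 (adjusted p = 0.0245) and from the processed signals -1.65 (adjusted p = 0.0285), past the 2-fold limit in both, and over the alternatives that kept all rats its adjusted p ran from 0.0245 to 0.482. Of all tested probes 0.102% were called lower (23 probes). In 6 proteases every C10 rat lay below every CF rat, as in 1.81% of all tested probes. Mcpt4 overlapped through CF rat 4 (6.92), which lay below C10 rat 2 (7.24), and its exact p was 0.0571. Leaving out certain single rats ended most of these calls. Of the 9 proteases 0 were called without CF rat 1 or CF rat 2, 1 was called without C10 rat 3 or C10 rat 4, 4 without CF rat 3, and 6 without any of the others. The log2 fold change of Mcpt1 in C10 against CF was -2.48 without CF rat 1 and -2.55 without CF rat 2, with adjusted p of 0.0534 and 0.055. Over the 8 omissions its adjusted p ran from 0.000359 to 0.055. All probes called lower fell likewise from 23 to 1 without CF rat 1, 0 without CF rat 2 and 2 without C10 rat 3, so in those fits the loss was not particular to the proteases. Without C10 rat 4 all probes called lower fell only to 13, while the proteases called fell from 6 to 1.

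Against I, all 7 of the proteases other than the tryptases were called lower in C10. The changes ran from -2.92 for Mcpt1 (SE 0.35, adjusted p = 0.00253) to -1.22 for Cma1 (SE 0.18, adjusted p = 0.00946), with -1.75 for Mcpt4, -2.08 for Mcpt8, -2.03 for Mcpt9, -1.93 for Mcpt10 and -1.62 for Cpa3. In this comparison 0.169% of all tested probes were called lower (38 probes), and 2.32% had all C10 rats below all I rats, as all 7 proteases did. Without I rat 2 only 4 of them were called, Mcpt1, Mcpt8, Mcpt9 and Mcpt10. All probes called lower fell likewise in that fit, from 38 to 16. C10 and I rats lay on opposite sides of the slide, and with the side as a term of the fit 5 proteases were called here, 6 in C10 against REF and 5 in C10 against CF. All probes called lower with that term numbered 26, 39 and 21 in the same order, against 38, 44 and 23 without it. The 3 comparisons share the C10 rats and are not independent of each other.

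Between CF and I, 0% of the tested probes were called. Cma1 and Mcpt10 were lower in CF by 0.37 and 0.57 with unadjusted p of 0.0443 and 0.0134, as 751 of all tested probes had below 0.05, and the adjusted p of all 9 proteases was 0.9998.

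The arrays that held rats of 2 diets allow the same reading within each array, free of differences between arrays. Mcpt1 had log2 ratios of C10 over REF of -1.97 and -1.51 on arrays 1 and 2 and of C10 over CF of -3.10 and -3.44 on arrays 3 and 4. Mcpt8 gave -1.28, -1.08, -1.65 and -2.21 on those 4 arrays, and Cpa3 -1.47, -1.21, -2.20 and -1.68. All 7 proteases other than the tryptases were below 0 on each of the 4 arrays with a C10 rat, the weakest being Mcpt4 on array 2 (-0.43). On arrays 7 and 8, with I over REF, the same 7 lay between -0.48 and 0.29 except for Mcpt4 at 1.004. Arrays 5 and 6, with CF over I, differed from each other: 5 of the 7 were above 0 on array 5 and all 7 below 0 on array 6, where CF rat 4 lay next to I rat 2.

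**Figure D3:**
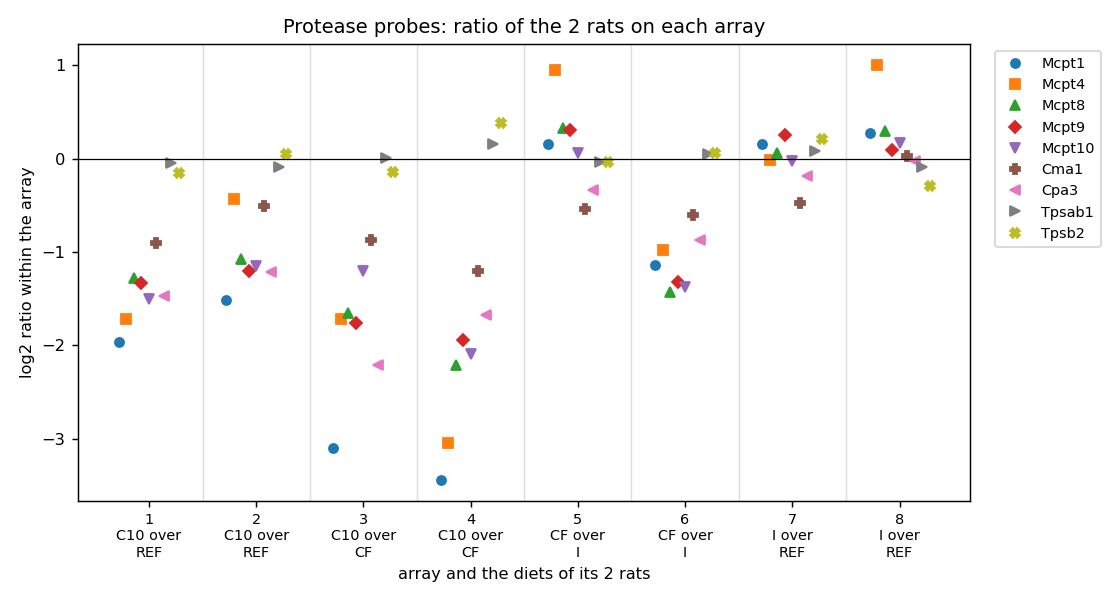
Log2 ratio of the 2 rats on each of the 8 arrays (x axis, with the diets of the pair) for the 9 protease probes (symbols). On the 4 arrays with a C10 rat 7 proteases lie between -3.44 and -0.43 and the tryptases between -0.15 and 0.38, and on the arrays with I over REF most ratios lie near 0.

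Whether the proteases moved together from rat to rat was examined over the 12 rats of REF, CF and I, since a shared shift in C10 gives a correlation by itself. Each protease was set against the mean of the other 8, in 9 relations with permutation tests adjusted over them. The permutations exchanged all 12 rats freely across diets, dyes and shared arrays. Differences of diet, dye or array that the proteases share thus enter r, and the p-values do not single out movement between rats of a diet. Mcpt1 (Pearson r = 0.93, permutation p = 7e-05, adjusted p = 0.000315; Spearman rho = 0.86, adjusted p = 0.00292), Mcpt10 (r = 0.91, p = 4e-05, adjusted p = 0.000315; rho = 0.94, adjusted p = 0.00018), Mcpt9 (r = 0.87, p = 0.00033, adjusted p = 0.000945; rho = 0.82, adjusted p = 0.00603) and Mcpt8 (r = 0.86, p = 0.00042, adjusted p = 0.000945; rho = 0.69, adjusted p = 0.0372) followed the others. Without the 2 rats farthest from the median, r was 0.86, 0.94, 0.80 and 0.75 over 10 rats for these 4. Within the 6 Cy3 rats r was 0.83, 0.91, 0.64 and 0.51, within the 6 Cy5 rats 0.93, 0.85, 0.87 and 0.87, and within the 8 rats of arrays 5 to 8 0.94, 0.97, 0.90 and 0.88, in the same order. The 4 rats on arrays 1 to 4 were too few for a value.

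The other 5 proteases did not pass in this test. Cma1 had r = 0.52 (adjusted permutation p = 0.154, rho = 0.51, adjusted p = 0.169) and fell to 0.19 without the 2 farthest rats. Mcpt4 had r = 0.29 and rho = 0.20, Cpa3 r = 0.15 and rho = 0.028, Tpsab1 r = 0.00014 and rho = -0.36 and Tpsb2 r = -0.31 and rho = -0.22, with adjusted permutation p from 0.371 to 0.9997. A p that misses the threshold in 12 rats does not show that these genes vary apart from the rest.

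By pairs, given as a description, the 6 correlations among Mcpt1, Mcpt8, Mcpt9 and Mcpt10 over the 12 rats were 0.91 to 0.98. Cma1 with these 4 had r from 0.65 to 0.71, Mcpt4 from 0.24 to 0.40 and Cpa3 from -0.035 to 0.27. The correlation of Cpa3 with Mcpt4 was 0.43. Over all 16 rats, after the means of diet and dye were taken off, the corresponding ranges were 0.88 to 0.97, 0.45 to 0.54, 0.11 to 0.32 and 0.098 to 0.32. In these values 4 genes of the chromosome 15 locus followed each other closely between rats of a diet, whereas Mcpt4, which lies in the same locus, and Cpa3 fell in C10 with them but followed them less within a diet. The difference between these correlations was not tested, nor was binding of the Mcpt8 and Mcpt9 probes to each other's transcripts, and the Mcpt4 probe was dim.

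**Figure D4:**
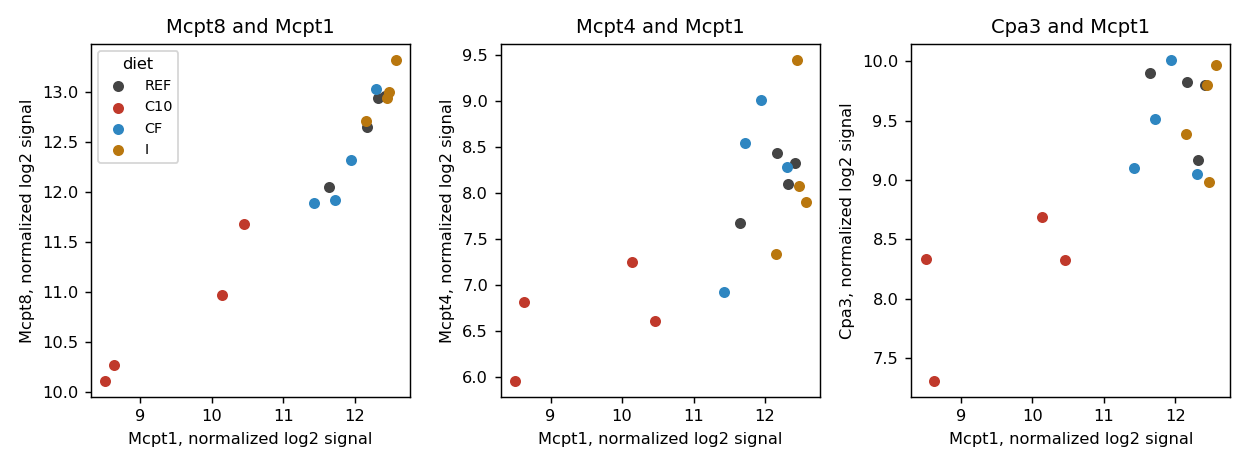
Normalized log2 signal of Mcpt8, Mcpt4 and Cpa3 (y axes, 1 panel each) against that of Mcpt1 (x axes), with 1 point for each of the 16 rats coloured by diet. The C10 points lie at the lower left in all panels, and over the 12 rats of the other diets the r of Mcpt1 and Mcpt8 was 0.97.

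Of the genes compared with the mean standardised signal of the 9 probes over the 16 rats (11913 genes with a symbol), the most alike was Hdc, histidine decarboxylase, which makes histamine (r = 0.95). Its log2 fold change in C10 against REF was -1.08 (SE 0.074, limma adjusted p = 1.84e-05), and it was called. The next was Mcpt8l2 (r = 0.94, change -1.45, adjusted p = 0.00144), followed by Nkg7, a granule protein of cytotoxic lymphocytes (r = 0.92, change -0.81, adjusted p = 0.0155), and by Vch, the vascular chymase (r = 0.88, change -1.44, adjusted p = 0.0348). Slamf9, Gsta3, Sectm1a and Mfsd2a had r of 0.86, 0.85, 0.85 and 0.85. Part of each r came from the shared shift in C10: after the means of diet and dye were taken off, it was 0.81 for Hdc, 0.80 for Mcpt8l2, 0.71 for Nkg7, 0.74 for Vch and 0.27 for Mfsd2a.

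Lists of genes around the proteases were counted in C10 against REF. Of 21 other proteases listed for the chymase and tryptase loci 10 were matched to a probe by gene symbol and 9 were tested. Most relatives, Mcpt2 among them, were thus not read here under their own symbol. The study lists Mcpt1 and Mcpt2 as separate genes, both lower with cocoa on these arrays, with the larger fall for Mcpt2. The probe named Mcpt1 here may read either enzyme, so its fall may be the one the study gives for Mcpt2. Of the 9, 1 was called lower, Mcpt8l2 (Vch, called above, was not on the list), and Prss30 was lower by less than 2-fold (-0.79, adjusted p = 0.0446), and the median of the 9 was -0.024. The mediator list, enzymes for histamine, serotonin, prostaglandins and leukotrienes, had 11 of 11 genes on the lower side, a median of -0.40, 1 gene called (Hdc) and 4 with an adjusted p below 0.05. Its largest changes were in Tph1, the enzyme that starts serotonin synthesis (-1.37, adjusted p = 0.0672), and in Hdc. Of the 11 genes 9 had an unadjusted limma p below 0.05, as had 4137 of the 22539 tested probes, whose median change was 0.015. How many of all tested probes had an adjusted p below 0.05 at any size of change was not counted, here or for the next list.

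Of 18 tested receptor and identity genes, 0 were called and 3 were lower with an adjusted p below 0.05. These 3 were the chains of the IgE receptor, Fcer1a (-0.81, adjusted p = 0.00383), Ms4a2 (-0.76, adjusted p = 0.00848) and Fcer1g (-0.67, adjusted p = 0.0325). The list's median was -0.089, and 4 of its 18 genes had an unadjusted limma p below 0.05, as had 4137 of the 22539 tested probes. The growth factor receptor Kit (-0.27, adjusted p = 0.387) and the transcription factor Gata2 (-0.22, adjusted p = 0.13), named after their values were seen, did not pass.

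In C10 against REF 4137 of the 22539 tested probes had an unadjusted p below 0.05, the share beside which the counts below stand. Among 18 genes of granule storage and protease activation 0 passed in limma even without the fold limit, and 3 had an unadjusted p below 0.05. The largest changes were in Srgn, the granule proteoglycan core (-0.63, adjusted p = 0.244), and Snap23, a protein of granule release (0.24, adjusted p = 0.0652), and the median was 0.051. Of 13 protease inhibitors 0 were called. Pzp (-2.03, SE 0.77, adjusted p = 0.186) and Slpi (-1.30, adjusted p = 0.0761) had the largest changes, Cst3 was lower and Spint1 higher with adjusted p of 0.0395 and 0.0491, and the median was -0.17. None of 14 growth and homing genes (median 0.026, largest Vcam1 at 0.58 and Cx3cl1 at 0.37) and none of 15 targets and receptors of the proteases (median -0.0018, largest Ocln at 0.52 and Vip at -0.49) had a limma adjusted p below 0.05, and 0 and 3 of them had an unadjusted p below it.

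The tissue read as colon: genes of the colonic epithelium were well measured in all diets, with a log2 summed level of 16.66 to 17.68 over the 16 rats. Markers of other cells and of position moved beside the C10 falls without a call. The log2 summed level of the 4 posterior colon Hox genes tested was 13.53 to 15.00 in C10 and 8.81 to 14.12 in REF (median change 0.99), that of 6 smooth muscle genes 15.75 to 18.05 and 17.78 to 18.94 (median -0.91, all 6 lower), that of 6 macrophage genes 12.44 to 13.15 and 12.98 to 13.61 (median -0.34, all 6 lower), and that of 4 B cell genes 9.25 to 12.83 and 9.35 to 12.72 (median 0.65). A fit with the means of the Hox and B cell lists as covariates was chosen after the data were seen. In it 36 of all probes were called lower in C10 against REF, against 44 without the covariates. Among them were 6 of the 7 proteases, and Mcpt4 was not called (-1.06). The changes were -2.21 for Mcpt1, -1.502 for Mcpt8 and -1.33 for Cpa3. Hox levels were higher in C10 with little overlap and each diet had 4 rats, so this fit cannot tell position from diet. The 3 adipocyte genes were lower too (median -1.10), with a log2 summed level of 10.12 to 11.75 in C10 and 11.06 to 13.05 in REF. The 4 plasma cell genes tested had a median of -0.59 (3 of 4 lower), with a log2 summed level of 13.69 to 14.30 in C10 and 13.94 to 14.19 in REF. Of these 4 genes 2 had an unadjusted limma p below 0.05, as had 4137 of the 22539 tested probes, whose median change was 0.015. Such a p was also found in 5 of the 6 smooth muscle genes, 3 of the 6 macrophage genes and all 3 adipocyte genes. It was found in 2 of the 4 Hox genes and 0 of the 4 B cell genes. Of 3 eosinophil genes (median 0.57, summed level 8.69 to 9.85 in C10 and 8.04 to 9.77 in REF) Alox15 was higher (0.57, adjusted p = 0.0203), and of 5 cytotoxic and NK cell genes (median 0.014, summed level 9.87 to 10.72 and 10.17 to 10.59) Nkg7 was lower. The part of colon position, B cells, smooth muscle, macrophages, adipocytes, plasma cells, eosinophils and cytotoxic cells in the result was not tested. Median signals were 109.5 to 169 in Cy3 and 302.5 to 426.5 in Cy5, 0 spots were saturated, and the signals of any 2 rats correlated with r of 0.979 to 0.996.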

How the data were processed

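RNA of 16 rats was hybridised to 8 two-colour Agilent arrays. The authors deposited unnormalized Feature Extraction 10.7.3.1 output, with spot and local background median intensities per dye. Its processed intensities entered 1 alternative. A normalized table was left out, because no label ties its 8 columns to arrays.

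The study names normexp, spatial and intensity loess and Aquantile, and these were run in limma 3.58.1 (R 4.3.3, with data.table at 1.17.8), with an offset of 50, which compresses changes of dim probes, and spans of 0.4 and 0.3. Spots were averaged per probe on the log2 scale, and probes well above background in 4 or more rats were kept. Diet and dye entered a linear model of separate channels with the array as block (correlation within a spot 0.479), moderated by empirical Bayes, with Benjamini-Hochberg adjustment over 22539 probes per comparison. Calls needed an adjusted p under 0.05 together with a 2-fold change. The study's rank product was not run. Exact permutation tests were two-sided, and correlations used 100000 permutations (Python 3.11.15, scipy 1.17.1). Promoters were aligned with Biopython 1.88. The fit was tested on simulated data. The number of arrays limits the precision.

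The members and lists were chosen with earlier results of these data known. Named were all 9 proteases, the genes of each list called in C10 against REF and the 2 with the largest change there, and the 8 genes most correlated with the mean standardised protease signal; any gene below the fold limit that a count of 5 or fewer covers was named after its value was seen. Alternatives were other background corrections and normalizations, no filter, log-ratios, other terms, 1 probe per gene, and leaving out each rat.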

Additional observations from a re-analysis of the deposited data

Results flagged for a closer look

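In 2 of 36 groups of 4 rats, 1 rat stood further from the others than Dixon's limit for a single stray value, set on the gap to the nearest rat as a share of the group's whole range, which chance passes in about 1 of 20 groups. Cpa3 in REF rat 3 (Cy3, array 7) had a log2 signal of 9.17, with the other 3 REF rats at 9.80 to 9.90. Tpsab1 in REF rat 1 (Cy3, array 1) had 6.55, with the others at 6.30 to 6.34.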

How the results depend on the processing

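In the comparisons with C10, 48 of 57 counts of proteases called stayed within 1.5 times their value and 9 did not. The other comparisons had no protease call to lose. When log-ratios within arrays were fitted, 0 were called in each of C10 against REF, CF and I, as were 0 of all probes. Without a dye term 1 was called in C10 against CF. Leaving out 1 rat gave 0 to 6 calls in C10 against CF, 4 to 7 in C10 against I and 5 to 7 in C10 against REF. All probes called lower in C10 against REF numbered 44, against 78 without the offset, 81 from processed signals, 23 without a dye term, 102 without REF rat 3 and 20 without REF rat 2. Of the fitted changes 900 kept direction and call, 77 lost and 2 gained a call, and 47 changed sign, all of them uncalled values near 0. No paired analysis was possible by replicate number because these numbers only name rats, whereas the 2 rats of an array were paired as a block in the reported fit and in the log-ratios. Precision is limited by signal over background for the tryptases and Mcpt4.

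The log2 changes that crossed 0 were these. In C10 against REF, Tpsab1 was 0.11 from processed signals, and Tpsb2 -0.0026 without normalization between arrays, -0.018 with log-ratios and -0.038 with the covariates. In CF against REF, Mcpt1 was -0.014 without a dye term, Mcpt8 0.042 without normalization between arrays and 0.19 with log-ratios, and Mcpt9 0.13 with log-ratios. Cpa3 in I against REF was -0.030 without a dye term. In CF against I, Mcpt4 was -0.033 with the side of the slide, Tpsab1 0.0019 without the offset, and Tpsb2 -0.060 from processed signals, -0.0072 without normalization between arrays, -0.0029 without spatial loess, -0.023 with log-ratios and -0.0087 with the covariates. The cause was not tested.

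With 1 rat left out, the ranges that crossed 0 were as follows. In C10 against REF they were -0.030 to 0.066 for Tpsab1 and -0.078 to 0.13 for Tpsb2. In CF against REF they were -0.0092 to 0.36 for Mcpt1, -0.28 to 0.090 for Mcpt8, -0.36 to 0.040 for Mcpt9, -0.33 to 0.032 for Cpa3 and -0.12 to 0.051 for Tpsb2. In I against REF they were -0.10 to 0.24 for Cpa3 and -0.11 to 0.028 for Tpsb2. In C10 against CF they were -0.043 to 0.12 for Tpsb2. In C10 against I they were -0.0031 to 0.13 for Tpsb2. In CF against I they were -0.11 to 0.47 for Mcpt4, -0.32 to 0.043 for Cpa3, -0.022 to 0.0079 for Tpsab1 and -0.044 to 0.073 for Tpsb2.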
